A study of Rattus norvegicus with 6 samples.

Results

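The distal miRNA cluster of the Dlk1-Dio3 domain, which runs from miR-379 to miR-410, was examined in primary sertoli cells of the rat after exposure to 4-nonylphenol (4-NP). Its members were chosen by name from a list of 34 genes, and every mature miRNA of the deposited table whose name, without a final -3p or -5p, was on the list was taken. These were, in their order on the chromosome, rno-miR-379, rno-miR-411, rno-miR-299a, rno-miR-380, rno-miR-323, rno-miR-758, rno-miR-329, rno-miR-494, rno-miR-1193, rno-miR-543, rno-miR-495, rno-miR-667, rno-miR-376c, rno-miR-376b, rno-miR-376a, rno-miR-300, rno-miR-381, rno-miR-487b, rno-miR-539 with rno-miR-3576, rno-miR-382 with rno-miR-3592, rno-miR-134, rno-miR-668, rno-miR-485, rno-miR-154, rno-miR-496, rno-miR-377, rno-miR-541, rno-miR-409a, rno-miR-412, rno-miR-369 with rno-miR-3578, and rno-miR-410. The genes gave 62 of the 734 mature miRNAs in the table. In 3 cases a minus-strand miRNA lies opposite a plus-strand one, and the reads of each such pair were added together (miR-3576 with miR-539-5p, miR-3578 with miR-369-5p, miR-3592 with miR-382-3p), which left 59 of 731 miRNAs. A summed pair is called below by its plus-strand name.

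The cells were sertoli cells, the somatic nurse cells of the seminiferous tubule, cultured from the testes of Sprague-Dawley rats aged 5 to 10 days. The study compared 3 control samples, without 4-NP (0 mM), with 3 samples given 0.5 mM 4-NP, an alkylphenol with estrogen-like action, and both groups were taken at 24 h. Both groups were of the same strain, and sertoli cells had been enriched by enzyme digestion and centrifugation of the tissue before culture. The labels do not say whether replicates came from separate cultures or animals, so the p-values measure the spread between these samples, which may be technical.

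The Dlk1-Dio3 domain is imprinted. Its protein-coding genes, among them Dlk1, Rtl1 and Dio3, are expressed from the paternal chromosome, whereas its noncoding RNAs, which include Meg3 and the long transcripts that carry the miRNAs, come from the maternal one. The distal cluster is known best from brain, placenta and the embryo, and its loss in mice disturbs metabolism after birth. Each hairpin of such a transcript is cut into a short duplex with a 5p and a 3p arm, an Argonaute protein keeps mostly one strand, and the bases called the seed choose the target mRNAs.

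In the GRCr8 gene table of RefSeq, all 34 genes lie on chromosome 6 between positions 134543445 and 134579838, a span of 36.4 kb, with 31 genes on the plus strand and 3 on the minus strand. Mature sequences of all 62 miRNAs were matched in the RefSeq table, at 18 to 25 nt in length. The build used for counting is not given in the sources used here, so positions serve only to place the genes. They held 58 different seeds, of which 3 were shared by more than 1 miRNA. The 12 miRNAs that were lower after 4-NP in the test described below are shown because the comparison turns on them, together with the most abundant member, miR-411-5p. Sequences are written 5′ to 3′, with the seed (bases 2 to 8) in capitals.
rno-miR-411-5p (chr6:134544604-134544624, plus strand): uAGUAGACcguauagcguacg
rno-miR-299a-3p (chr6:134545107-134545127, plus strand): uAUGUGGGacgguaaaccgcu
rno-miR-380-3p (chr6:134546281-134546301, plus strand): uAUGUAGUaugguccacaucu
rno-miR-329-5p (chr6:134547935-134547958, plus strand): aGAGGUUUucugggucucuguuuc
rno-miR-494-5p (chr6:134550130-134550151, plus strand): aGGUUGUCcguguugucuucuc
rno-miR-543-3p (chr6:134552453-134552473, plus strand): aAACAUUCgcggugcacuucu
rno-miR-495 (chr6:134554103-134554124, plus strand): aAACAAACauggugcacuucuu
rno-miR-376b-3p (chr6:134558913-134558933, plus strand): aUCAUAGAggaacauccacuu
rno-miR-300-3p (chr6:134559968-134559989, plus strand): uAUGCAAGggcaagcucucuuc
rno-miR-154-3p (chr6:134574402-134574423, plus strand): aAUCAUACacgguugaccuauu
rno-miR-541-5p (chr6:134578434-134578458, plus strand): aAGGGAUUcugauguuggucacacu
rno-miR-409a-3p (chr6:134579231-134579250, plus strand): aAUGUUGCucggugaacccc
rno-miR-369-3p (chr6:134579507-134579527, plus strand): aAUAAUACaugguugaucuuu
Among them, miR-495 and miR-543-3p have different seeds (AACAAAC and AACAUUC) but share an 11-nt stretch, GGUGCACUUCU, near their 3′ ends.

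The samples held 20023200 to 23426742 reads on mature miRNAs. Levels are given as CPM, the counts per 1000000 of these reads, on which 3 reads, taken as the limit of detection, correspond to 0.128 to 0.150 CPM. Since reads rather than molecules were counted, this limit covers counting error alone. A share of 62.0 to 63.9% of the mature reads fell on miR-21-5p, which left the other miRNAs correspondingly less of the depth. Each 2 replicates of a group differed by far more than counting error, with chi-square values of 154 to 942 per degree of freedom, and the 6 samples were kept as separate replicates.

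The cluster took 1.25 to 1.57% of the mature miRNA reads. Its summed level was 14592, 15585 and 15699 CPM in control samples 1, 2 and 3 and 12534, 13432 and 14226 CPM in 4-NP samples 1, 2 and 3. The lowest control thus lay just above the highest 4-NP sample. The control mean was 15292 ± 609 CPM and the 4-NP mean 13397 ± 847 CPM (SD, n = 3 in each group), a ratio of 0.876 ± 0.0654 (SD from both groups). No test was made of this sum. Most of it was miR-411-5p, which held 68.2 to 72.0% of the cluster's reads and ranked 9th of all mature miRNAs by mean level. Without miR-411-5p the cluster summed to 4575 ± 156 CPM without and 3923 ± 104 CPM with 4-NP (SD, n = 3 in each group).

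The members differed widely in level. On average over the 6 samples, 8 miRNAs were above 100 CPM, 23 between 10 and 100 CPM, 19 between 1 and 10 CPM and 9 below 1 CPM, and 55 of the 59 had reads in every sample. The filter on low counts kept 51 of the 59 and 546 of the 731 miRNAs. The 8 that it removed were miR-1193-5p, miR-323-5p, miR-381-3p, miR-410-5p, miR-412-3p, miR-487b-5p, miR-496-5p and miR-667-5p, with 0 to 18 reads per sample. Of the 51 kept, miR-377-5p and miR-543-3p reached the minimum of 0.450 CPM in every sample of only 1 group.

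Each tested miRNA was compared between 4-NP and control with the quasi-likelihood F test of edgeR, two-sided, on TMM-scaled counts, with Benjamini-Hochberg adjustment over all 546 tested. At an adjusted p under 0.05, 12 of the 51 cluster miRNAs were lower after 4-NP and 0 were higher. Over all tested miRNAs, 12.8% were lower and 8.42% were higher by the same rule. At an unadjusted p under 0.05, 19 cluster miRNAs were lower, against 20.5% of all tested, and 1, miR-412-5p, was higher, against 16.3%. DESeq2 called 1 cluster miRNA higher, also miR-412-5p, and limma and the classic exact test of edgeR called 0. By a fold change rule (under 0.5 or over 2, with an unadjusted p under 0.05), 7 cluster miRNAs were lower, against 9.89% of all tested, and 0 were higher, against 6.04%. In 21 of the 51 every 4-NP sample lay below every control, which held for 22.7% of all tested, and in 1, miR-412-5p, every 4-NP sample lay above, which held for 20% of all tested. The median log2 fold change was -0.34 in the cluster, 0.00 over all tested miRNAs and 0.03 over those outside the cluster, and 40 of the 51 cluster values were below 0. In bulk RNA, fewer cells that make a miRNA and less of it per cell cannot be told apart.

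**Figure D1:**
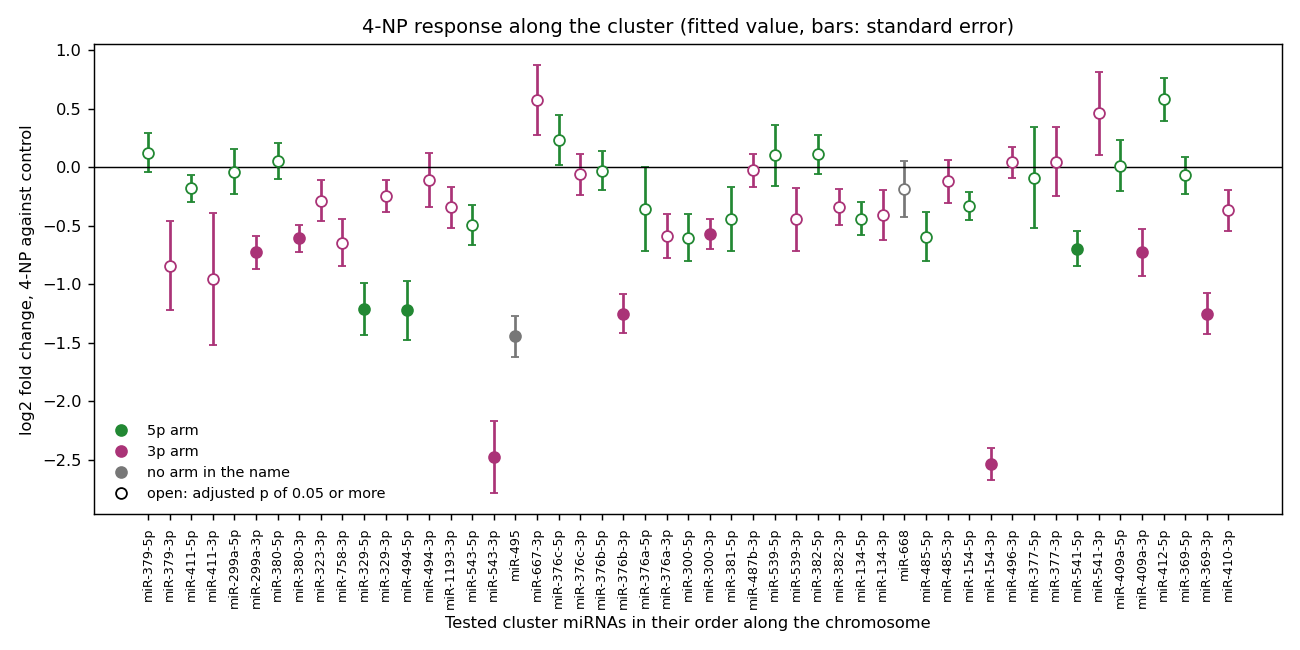
The log2 fold change after 4-NP (y axis, fitted by edgeR, bars are 1 standard error) is plotted for the 51 tested cluster miRNAs in chromosomal order (x axis), with 5p arms in green, 3p arms in purple and filled points for an adjusted p under 0.05. The 12 filled points are all below 0 and lie along the whole cluster, with the lowest at miR-154-3p (-2.53) and miR-543-3p (-2.47).

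The deepest falls were in minor arms of their genes. miR-154-3p stood at 17.8, 19.6 and 20.8 CPM in the control samples and at 3.48, 3.20 and 3.38 CPM in the 4-NP samples. Its highest 4-NP sample was far below its lowest control, and the fitted level after 4-NP was 0.173 of the control level (log2 fold change -2.53, SE 0.14, adjusted p = 0.000109). miR-543-3p had 68, 70 and 65 reads in control samples and 15, 13 and 6 in 4-NP samples, or 2.90, 3.03 and 2.92 against 0.678, 0.649 and 0.274 CPM. It fell to 0.180 of the control level (log2 fold change -2.47, SE 0.31, adjusted p = 0.00201). It reached the minimum of the filter in every control and in 4-NP samples 1 and 2, but not in 4-NP sample 3. Its control samples were thus needed for it to be tested. The 3p arms held 14.7% of the miR-154 reads and 24.8% of the miR-543 reads.

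miR-495, whose name carries no arm, shares the 11-nt stretch shown above with miR-543-3p. Its level was 20.8, 19.1 and 24.3 CPM in the controls and 9.58, 7.14 and 7.12 CPM after 4-NP (log2 fold change -1.44, SE 0.18, adjusted p = 0.00192). The groups did not overlap, and every 4-NP sample was well below the lowest control. miR-376b-3p belongs to the miR-376 family, whose precursors are known to be edited by adenosine deaminases in brain. It was at 35.1, 37.6 and 38.4 CPM in the controls and 19.1, 12.6 and 15.3 CPM after 4-NP (log2 fold change -1.25, SE 0.17, adjusted p = 0.00276). Its sisters miR-376a-3p and miR-376c-3p, which differ from it at 3 and 5 of 21 aligned bases, did not pass the test. miR-376a-3p was at 251, 265 and 271 CPM in the controls and 232, 140.4 and 157 CPM after 4-NP, without overlap (log2 fold change -0.59, SE 0.19, adjusted p = 0.0720), while miR-376c-3p overlapped between the groups (log2 fold change -0.06, SE 0.17). DESeq2 called miR-376a-3p lower (adjusted p = 0.0200), as did edgeR without 4-NP replicate 1 (0.0217), and it missed the threshold in 14 of 16 alternatives.

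miR-369-3p, which is known for binding AU-rich elements of mRNAs, was at 66.5, 63.4 and 56.6 CPM in the controls and at 33.8, 24.5 and 21.1 CPM after 4-NP (log2 fold change -1.25, SE 0.18, adjusted p = 0.00346). All 4-NP samples were well below the controls. miR-329-5p, the minor arm of a gene studied in neurons for its part in dendrite growth, had 67, 78 and 58 reads in control samples and 23, 30 and 28 in 4-NP samples (2.86, 3.38 and 2.60 against 1.04, 1.50 and 1.28 CPM). Its log2 fold change was -1.21 (SE 0.22, adjusted p = 0.00845). miR-494-5p, also a minor arm, had 77, 91 and 77 reads in control samples and 39, 38 and 21 in 4-NP samples (3.29, 3.94 and 3.45 against 1.76, 1.90 and 0.959 CPM), with a log2 fold change of -1.22 (SE 0.25, adjusted p = 0.0149). Without control replicate 2 its adjusted p was 0.0533.

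The other 5 of the 12 fell by less than 2-fold. miR-380-3p, the most abundant of the 12 and the main product of its gene, was at 446, 498 and 415 CPM in the controls and 311, 319 and 268 CPM after 4-NP (log2 fold change -0.60, SE 0.12, adjusted p = 0.0107). miR-300-3p was at 76.9, 81.4 and 72.4 CPM in the controls and 59.1, 48.0 and 48.8 CPM after 4-NP (log2 fold change -0.57, SE 0.13, adjusted p = 0.0200). For both, the gap between the groups was wider than the range of the 4-NP samples. miR-541-5p was at 63.2, 92.3 and 72.1 CPM in the controls, with control 2 the highest, and 48.2, 48.9 and 43.5 CPM after 4-NP (log2 fold change -0.70, SE 0.15, adjusted p = 0.0173). miR-299a-3p was at 18.4, 24.3 and 24.2 CPM in the controls and 14.7, 13.5 and 12.4 CPM after 4-NP (log2 fold change -0.73, SE 0.14, adjusted p = 0.0123). miR-409a-3p was at 12.2, 12.6 and 7.90 CPM in the controls and 7.18, 6.89 and 5.75 CPM after 4-NP (log2 fold change -0.73, SE 0.20, adjusted p = 0.0411). Control 3 of miR-409a-3p lay close to the 4-NP samples. Of these calls, miR-299a-3p missed the threshold without 4-NP replicate 2 (0.0629), miR-541-5p without any 1 of the 4-NP replicates (0.0577 to 0.0697), miR-300-3p in 6 and miR-409a-3p in 9 of 16 alternatives, and miR-380-3p in the classic exact test (0.0875).

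**Figure D2:**
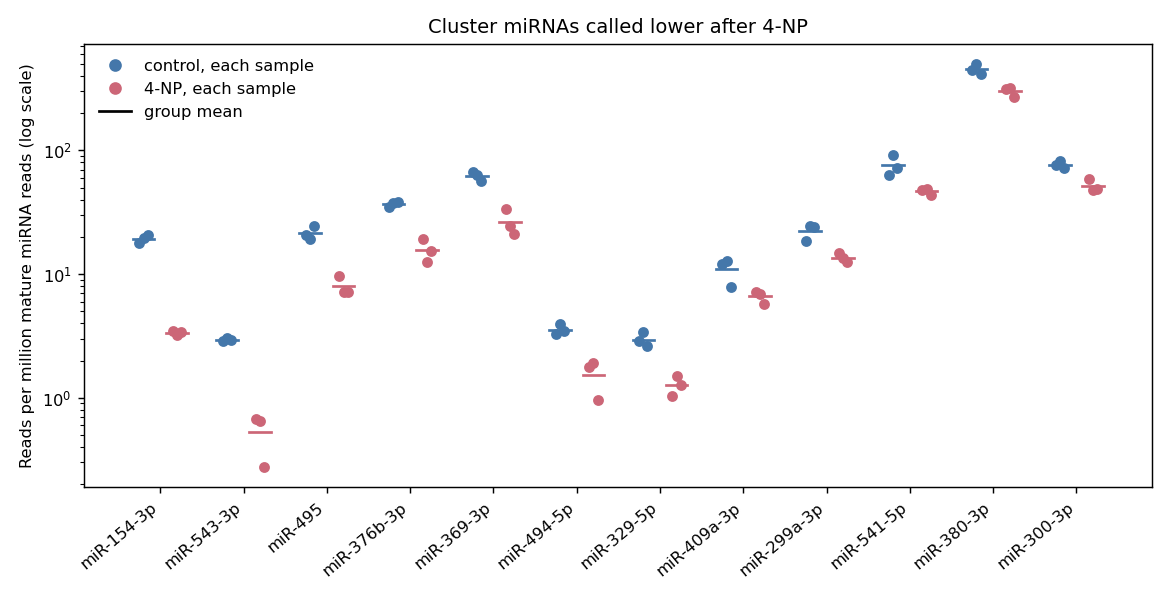
Levels of the 12 cluster miRNAs with an adjusted p under 0.05 (x axis, ordered by fold change) are plotted in each control (blue) and 4-NP sample (red) as CPM of mature miRNA reads on a log scale, with short lines at the group means. In each of the 12 the 3 red points lie below the 3 blue points, with the widest gap at miR-154-3p and the narrowest at miR-409a-3p.

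Of the 10 most abundant members, miR-380-3p was the one that passed the test. miR-411-5p was at 9949.8, 10899 and 11303 CPM in the controls and 8730.4, 9450.3 and 10242 CPM after 4-NP, so that the groups overlapped (log2 fold change -0.18, SE 0.11, adjusted p = 0.290). miR-379-5p, which is the 5p arm of the gene that opens the cluster, was at 1057, 950.4 and 1054 CPM and then 937, 1173 and 1230 CPM (log2 fold change 0.12, SE 0.17, adjusted p = 0.645). In the order of levels, miR-411-5p stood well above all other members in every sample, whereas miR-379-5p and the summed miR-369-5p (1165, 1199 and 892 CPM in the controls and 961, 1009 and 1129 CPM after 4-NP) overlapped and could not be ordered. miR-380-3p came next. miR-410-3p, from the last gene of the cluster, was at 259.6, 236 and 326 CPM in the controls and 206, 236 and 201 CPM after 4-NP, with 4-NP sample 2 almost level with control 2 (log2 fold change -0.37, SE 0.18, adjusted p = 0.178). miR-496-3p was at 99.97, 101 and 111 CPM in the controls and 104, 116 and 104 CPM after 4-NP (log2 fold change 0.04, SE 0.13), and miR-1193-3p at 92.1, 96.3 and 82.5 CPM against 80.6, 82.4 and 52.8 CPM (log2 fold change -0.34, SE 0.18, adjusted p = 0.208). The value closest to 0 among miRNAs with a mean of at least 100 reads was that of miR-487b-3p, at 73.9, 79.7 and 63.8 CPM in the controls and 66.5, 76.3 and 70.8 CPM after 4-NP (log2 fold change -0.03, SE 0.14).

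Of the 39 tested cluster miRNAs that were not called, 28 had a fitted level below the control and 11 above it. The highest of them was miR-412-5p, the only cluster miRNA with every 4-NP sample above every control, at 8.92, 10.8 and 13.0 CPM in the controls and 15.1, 18.0 and 16.03 CPM after 4-NP (log2 fold change 0.58, SE 0.18, adjusted p = 0.0667). miR-134-5p, known in neurons for limiting the size of dendritic spines, was at 30.3, 31.6 and 35.2 CPM and then 26.9, 21.3 and 23.8 CPM (log2 fold change -0.44, SE 0.14, adjusted p = 0.0689). miR-485-5p, which is known from synapses, had a log2 fold change of -0.59 (SE 0.21, adjusted p = 0.0856). These members and miR-758-3p (log2 fold change -0.64, SE 0.20, adjusted p = 0.0649) were named after their values were seen. For those with high errors, such as miR-541-3p (log2 fold change 0.46, SE 0.36) and miR-377-5p (-0.09, SE 0.43), a change of the size seen in miR-541-5p or miR-409a-3p would not have been detectable at this depth and spread.

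The pairs of miRNAs on opposite strands needed to be read as sums. In each of the 3 pairs the 2 names are exact reverse complements at the same position, over 22, 22 and 21 nt, as their sequences show.
rno-miR-539-5p (chr6:134563606-134563627, plus strand): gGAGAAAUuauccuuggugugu
rno-miR-3576 (chr6:134563606-134563627, minus strand): aCACACCAaggauaauuucucc
rno-miR-382-3p (chr6:134569992-134570012, plus strand): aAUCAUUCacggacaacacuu
rno-miR-3592 (chr6:134569992-134570012, minus strand): aAGUGUUGuccgugaaugauu
rno-miR-369-5p (chr6:134579472-134579493, plus strand): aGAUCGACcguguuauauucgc
rno-miR-3578 (chr6:134579472-134579493, minus strand): gCGAAUAUaacacggucgaucu
The abundant pair was miR-369-5p with miR-3578. In control samples 1, 2 and 3 the table gave 793, 27316 and 12359 reads to miR-369-5p and 26490, 369 and 7534 to miR-3578, and in 4-NP samples 1, 2 and 3 it gave 20691, 7292 and 16454 to the first name and 568, 12904 and 8270 to the second. The minus-strand name therefore held from 1.33 to 97.1% of the pair's reads, with its lowest and highest share both among the controls. The coefficient of variation over the controls was 97.5% for miR-369-5p, 116% for miR-3578 and 15.5% for their sum. Apart, the log2 fold changes had wide errors (0.25, SE 1.00, and -0.57, SE 1.47), and the sum gave -0.07 (SE 0.16, adjusted p = 0.776).

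The same held for the scarcer pairs. miR-3576 took 115, 95 and 54 reads in control samples and 55, 5 and 134 in 4-NP samples, while miR-539-5p took 39, 2 and 109 and then 74, 144 and 5. Over the 6 samples their sums, 154, 97 and 163 reads against 129, 149 and 139, were far closer to each other than either name alone. Over the controls alone the coefficient of variation was 27.0% for the sum, 33.3% for miR-3576 and 110.6% for miR-539-5p. The sum did not pass the test (log2 fold change 0.10, SE 0.26, adjusted p = 0.805). miR-3592 took 129, 94 and 36 reads in control samples and 69, 98 and 86 in 4-NP samples, and miR-382-3p took 15, 49 and 76 and then 37, 4 and 0. Read alone, miR-382-3p had a log2 fold change of -1.75 (SE 1.14), and the sum of the pair had -0.34 (SE 0.16, adjusted p = 0.165). How the authors assigned reads to the names of a pair is not given in the sources used here, and values of either name alone are uncertain.

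A similar division appeared between miR-379-3p and miR-411-3p, 2 minor arms of neighbouring genes on the same strand that differ at 1 of 20 aligned bases. They are shown because nearly all of their sequence is the same.
rno-miR-379-3p (chr6:134543496-134543517, plus strand): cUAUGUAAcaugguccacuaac
rno-miR-411-3p (chr6:134544639-134544658, plus strand): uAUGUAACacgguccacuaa
miR-379-3p was at 364, 192 and 327 CPM in the controls and 200.2, 216 and 89.1 CPM after 4-NP, and miR-411-3p at 67.7, 238 and 64.4 CPM and then 49.7, 44.2 and 91.3 CPM. In control 2 and 4-NP sample 3, where miR-379-3p was low, miR-411-3p was high. Apart, neither passed the test (log2 fold change -0.84, SE 0.38, adjusted p = 0.159, and -0.95, SE 0.56, adjusted p = 0.258). Their sum was 432, 430.0 and 391 CPM in the controls and 249.9, 260.0 and 180.4 CPM after 4-NP, without overlap, and its coefficient of variation over the controls was 5.51%, against 30.8% and 80.5% for the names apart. The sum was lower after 4-NP (log2 fold change -0.87, SE 0.15, adjusted p = 0.00701). This sum was chosen after the values were seen. Among the 12 called miRNAs, miR-409a-3p overlaps on the opposite strand with miR-409b, which is no member of the list and held 71.4 to 78.7% of the reads of the pair. miR-299a-3p likewise overlaps with miR-299b-5p, no member either, which held 8.32 to 12.6% of the reads of that pair, and their sum had a log2 fold change of -0.69 (SE 0.14, adjusted p = 0.0123). Summed in the same later step, the pair of miR-409a-3p and miR-409b was at 46.2, 59.2 and 37.1 CPM in the controls and 25.1, 24.9 and 21.5 CPM after 4-NP (log2 fold change -0.999, SE 0.17, adjusted p = 0.00671).

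**Figure D3:**
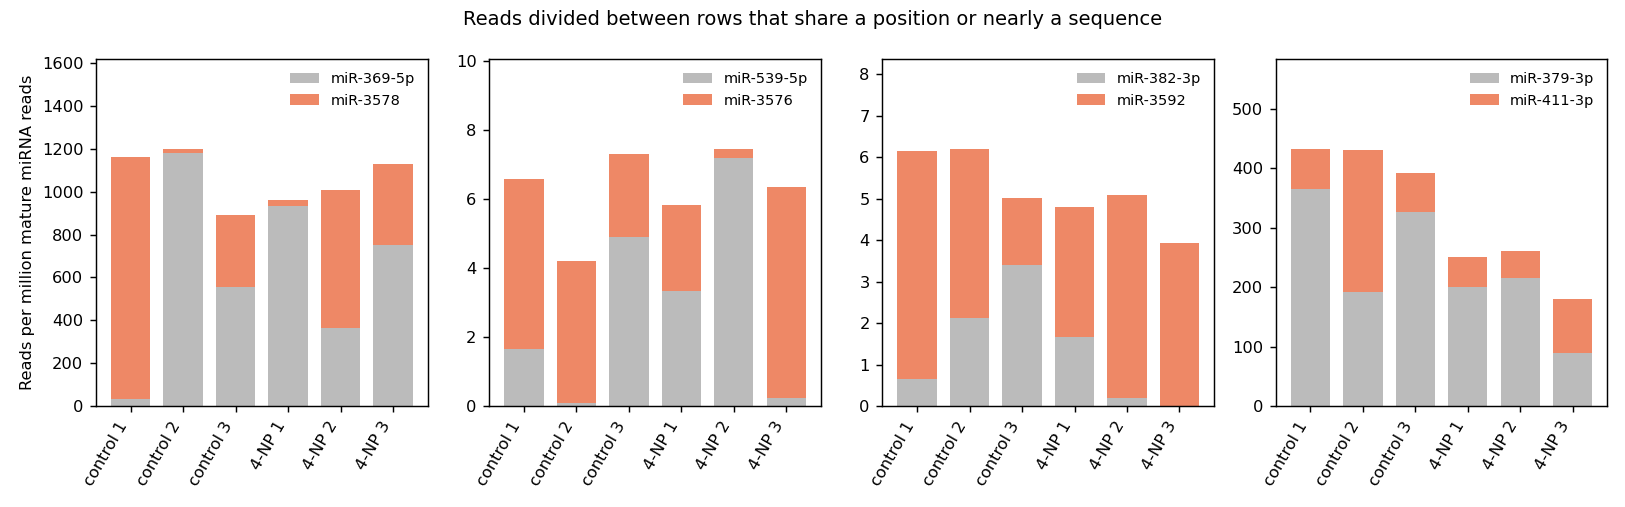
Stacked bars give the CPM of mature miRNA reads (y axis, from 0) in each sample (x axis) for the 3 pairs on opposite strands and for the near-identical miR-379-3p and miR-411-3p, with the colours marking the name to which reads were assigned. The division within a bar shifted from sample to sample in both groups, with miR-3578 at 1.33 to 97.1% of its pair, while the bar heights of that pair stayed between 892 and 1199 CPM.

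The 5p and 3p arms were also read apart. Of the 27 tested 3p miRNAs of the cluster 8 were lower, with a median log2 fold change of -0.41, and of the 22 tested 5p miRNAs 3 were lower, with a median of -0.13. Outside the cluster 27 of 206 tested 3p miRNAs were lower, with a median of -0.01, and 24 of 187 tested 5p miRNAs, with a median of 0.10, and the difference between the arms was not tested on these counts. The 12 called miRNAs came from 12 genes, and in the 11 with a second arm in the table the other arm did not pass the test, which alone does not show that the arms differ. Its log2 fold change was -0.33 for miR-154-5p and -0.49 for miR-543-5p, and closer to 0 for miR-376b-5p (-0.03), miR-299a-5p (-0.04), miR-409a-5p (0.01) and miR-380-5p (0.05). miR-300 was the exception in size, since miR-300-5p had -0.60 (SE 0.20, adjusted p = 0.0767) beside -0.57 for miR-300-3p.

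Whether the ratio of the arms changed was tested within samples, as an interaction of arm and group in edgeR's quasi-likelihood F test over all genes with both arms. In the cluster 28 genes had both arms in the table and 20 passed the minimum of 10 reads per arm on average. The ratio of 5p to 3p reads changed in 5 of these 20 genes at an adjusted p under 0.05, against 7.01% of the 157 genes tested (11 genes, the 5 included). The 5p arm gained in 4 of the 5 and the 3p arm in 1, and 13 of the 20 fitted changes were above 0, as were 82 of all 157. For miR-154, the 5p arm held 81.0, 80.6 and 76.5% of the gene's reads in control samples and 94.7, 94.8 and 94.5% after 4-NP. This was a log2 change of the ratio by 2.20 (SE 0.19, adjusted p = 0.000952), with no overlap. miR-154-5p itself was at 75.9, 81.4 and 67.6 CPM and then 62.4, 58.6 and 58.5 CPM, so that the shift lay mostly in the 3p arm.

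miR-543 moved in the same direction, from 67.3, 70.1 and 66.1% on the 5p arm in the controls to 89.1, 86.7 and 93.0% after 4-NP (log2 change of the ratio 2.01, SE 0.31, adjusted p = 0.0104), and miR-543-5p stood at 5.98, 7.10 and 5.70 CPM and then 5.56, 4.25 and 3.65 CPM. In miR-376b the 5p arm was the minor one and rose from 25.1, 20.9 and 18.6% to 35.1, 42.3 and 40.6% (log2 change of the ratio 1.24, SE 0.22, adjusted p = 0.0159), with miR-376b-5p at 11.8, 9.96 and 8.79 CPM and then 10.3, 9.24 and 10.5 CPM. However, miR-376b-5p differs at 1 of 21 aligned bases from miR-376c-5p, which averaged 49.4 CPM against 10.1 CPM over all samples. Whether reads were divided between these names was not tested. In miR-369, where the 5p value is the sum of its pair, the 5p share went from 94.6, 95.0 and 94.0% to 96.6, 97.6 and 98.2% (log2 change of the ratio 1.20, SE 0.27, adjusted p = 0.0496). miR-329 moved the other way, with 13.0, 12.2 and 12.4% on the 5p arm in the controls and 5.76, 7.37 and 7.22% after 4-NP (log2 change of the ratio -0.98, SE 0.19, adjusted p = 0.0256), while miR-329-3p overlapped between the groups, at 19.1, 24.2 and 18.4 CPM and then 17.0, 18.8 and 16.4 CPM. In each of these 5 genes the main arm stayed the main arm. Their 5p shares did not overlap between the groups, but the genes were picked by the test on the same samples. The lack of overlap therefore adds no support, and how often it occurs among all tested genes was not counted. It was also seen in miR-494, miR-299a, miR-380 and miR-485, none of which was called. The 5p share of miR-494 was 9.78, 11.1 and 6.88% in the controls, then 4.08, 6.29 and 2.89% after 4-NP. That of miR-299a was 45.2, 35.6 and 39.1%, then 56.2, 49.7 and 47.8%. That of miR-485 was 61.7, 65.4 and 60.3%, then 53.3, 58.3 and 53.5%, and miR-380 is given below.

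Of the 5 genes with the most reads, only miR-369, described above, passed the test of the arm ratio. The 5p arm of miR-411 held 99.3, 97.9 and 99.4% of the reads in control samples and 99.4, 99.5 and 99.1% after 4-NP (log2 change of the ratio 0.60, SE 0.54). That of miR-379 held 74.4, 83.2 and 76.3% and then 82.4, 84.5 and 93.2% (0.97, SE 0.46, adjusted p = 0.257), with the uncertain division of the 3p reads noted above. miR-380 (1.17, 1.23 and 1.32% on the 5p arm, then 1.99, 1.57 and 2.30%) and miR-376a (0.759, 0.697 and 0.331%, then 0.677, 0.636 and 0.751%) were read almost wholly from the 3p arm. miR-380-5p, known for repressing p53, was at 5.29, 6.19 and 5.56 CPM and then 6.33, 5.09 and 6.30 CPM, and miR-376a-5p at 1.92, 1.86 and 0.897 CPM and then 1.58, 0.899 and 1.19 CPM. Of the 20 genes, 9 had more 5p than 3p reads in every sample, 8 had more 3p reads and 3 differed between samples. Only the change in miR-154 held in all 10 alternatives run for the arm ratio. That of miR-543 was lost in 2 of 9 alternatives, that of miR-376b in 5 of 10, that of miR-329 in 7 of 9 and that of miR-369 in 8 of 10.

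**Figure D4:**
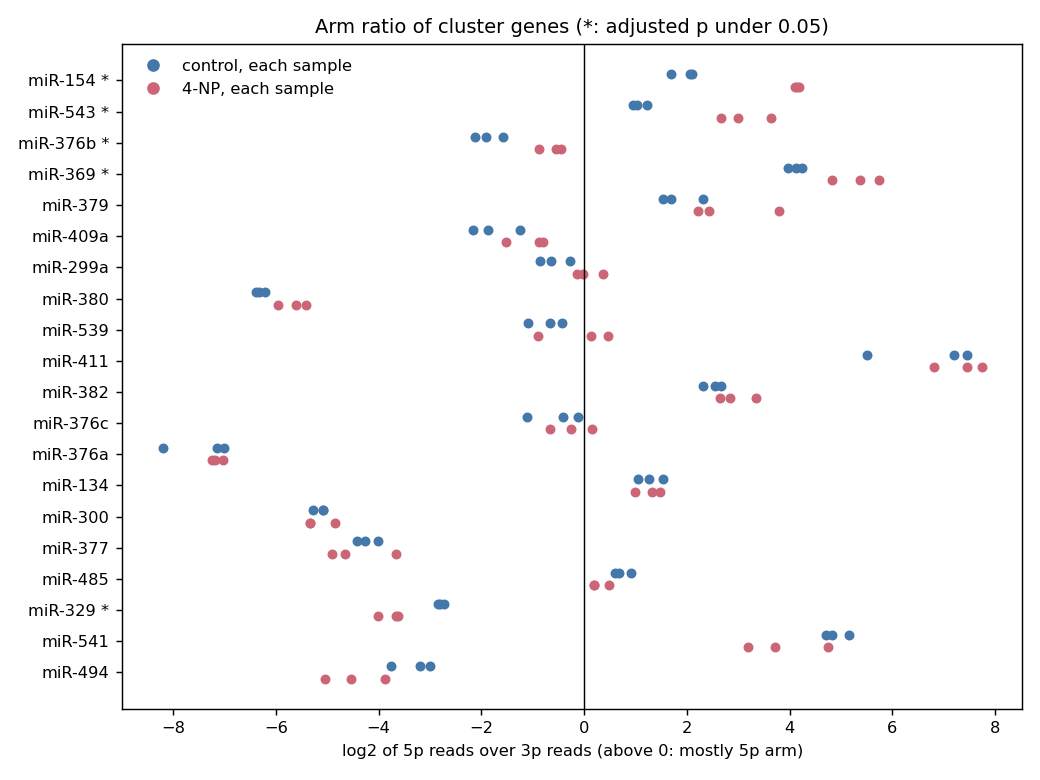
The log2 ratio of 5p to 3p reads (x axis) is plotted for the 20 tested cluster genes (y axis, ordered by the fitted change) in each control (blue) and 4-NP sample (red), and an asterisk marks an adjusted p under 0.05. The red points lie to the right of the blue ones in miR-154, miR-543, miR-376b and miR-369 and to the left in miR-329.

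The members that share a seed can be set side by side. miR-494-5p has the seed GGUUGUC in common with miR-496-5p and miR-410-5p, both of which are too scarce to be tested, and they are shown for the seed they have in common.
rno-miR-496-5p (chr6:134575062-134575081, plus strand): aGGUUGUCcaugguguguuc
rno-miR-410-5p (chr6:134579773-134579793, plus strand): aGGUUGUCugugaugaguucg
miR-496-5p had 8, 6 and 9 reads in control samples and 2, 1 and 0 in 4-NP samples, and miR-410-5p had 11, 6 and 6 and then 2, 2 and 0. In all 3 miRNAs every control lay above every 4-NP sample, which held for 23 of the 59 cluster miRNAs and 139 of all 731. The counts of the scarce ones after 4-NP were at or below the limit of 3 reads, so a common response of miRNAs with this seed could not be tested. The seed UGGAUAU was shared by miR-376c-5p (log2 fold change 0.23, SE 0.22) and miR-376b-5p (-0.03, SE 0.17), neither of which passed the test. The seed AUACAAG was shared by miR-539-3p (-0.44, SE 0.27) and miR-381-3p, which had 2 to 8 reads per sample.

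Of the features that the choice of members did not use, the first base of the mature sequence was A in 9 of the 12 called miRNAs and U in 3. Among tested cluster miRNAs 24 began with A, 17 with U, 5 with C and 5 with G. Position along the cluster gave no clear order, with 5, 3 and 4 called miRNAs among the 17 at the start, the 17 in the middle and the 17 at the end. Across the 51 tested miRNAs, which share libraries and in part a transcript, the log2 fold change had Pearson correlations of 0.24 with GC content, 0.05 with length, 0.12 with log level and 0.14 with position. These are descriptions across genes, which are not independent replicates.

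The proximal miRNAs of the same imprinted domain, around miR-127, were read in the same fit. Of 20 tested, 7 were lower and 0 higher at an adjusted p under 0.05, against 12.8% and 8.42% of all tested. All 20 log2 fold changes were below 0 (-3.10 to -0.09), as were 272 of all 546. Their median was -0.42, beside -0.34 in the distal cluster. At an unadjusted p under 0.05, most of the 20 were lower, against 20.5% of all tested, and 0 were higher, against 16.3%. The difference between the lists was not tested.

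Levels of miRNAs that mark other cells differed between the groups as well, and their part in the results above was not tested. The counts below stand beside 12.8% lower and 8.42% higher among all tested miRNAs at an adjusted p under 0.05 in edgeR's test. The smooth muscle or myoid miRNAs miR-143 and miR-145 summed to 120600 to 136300 CPM in the controls and 88390 to 96700 CPM after 4-NP, with 2 of 4 arms lower. The mesenchymal miR-199a and miR-214 summed to 15240 to 16140 and 12180 to 14660 CPM (3 of 4 lower), and the endothelial miR-126a to 6325 to 7615 and 3234 to 3805 CPM (2 of 2 lower). The mesenchymal arm with the most reads, miR-199a-3p, was the one not called (log2 fold change -0.06, SE 0.09, adjusted p = 0.661 in edgeR's test). The epithelial miR-200 family with miR-141 and miR-429 summed to 10.7 to 13.0 and 6.34 to 7.05 CPM (2 of 5 tested lower). Of the miRNAs that were higher, the erythroid list, led by miR-451, summed to 11.01 to 40.7 CPM in the controls and 59.3 to 630.8 CPM after 4-NP (1 of 2 tested higher). The meiotic germ cell list of miR-34c and miR-449a was mixed, at a summed 129.6 to 143.8 and 124.3 to 157 CPM. Here 2 of 3 tested were higher, both of them arms of miR-34c. The third, miR-449a-5p, was at 129.4, 128.1 and 114.0 CPM and then 105.6, 119.4 and 92.4 CPM (log2 fold change -0.24, SE 0.14, adjusted p = 0.254 in edgeR's test). The myeloid list (8.05 to 10.6 and 8.36 to 14.1 CPM), the neuronal list (18.0 to 20.2 and 13.6 to 20.2 CPM) and the striated muscle list (14.1 to 19.5 and 13.2 to 14.8 CPM) had 0 called miRNAs in edgeR's test, with 1, miR-142-3p, at an unadjusted p under 0.05. miR-202, which is used as a marker of gonadal somatic cells such as sertoli cells, was present at 807 to 1195 CPM in the controls and 698 to 796 CPM after 4-NP, with 0 of 2 arms called and 1, miR-202-5p, at an unadjusted p under 0.05. No listed marker was at 0 in all samples.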

How the data were processed

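Small RNA of 18 to 30 nt from 3 control and 3 4-NP samples was purified on a gel, given adapters with molecular identifiers and sequenced by the authors. Their deposited table gives raw read counts per small RNA and sample, without normalization. The second column of each sample, which bears the name of the identifiers, held a score of 1 in all 364 cluster entries with reads and was not used. HISAT2 and DESeq2 are named in the submitters' processing notes, while the genome build and the rule for assigning reads are not given in the sources used here. Groups and replicate numbers came from the labels, dose, time and donor age from the labels or the study's methods, and treated columns were matched to treated samples by number.

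Rows of mature miRNAs alone entered library sizes and tests. The counts were fitted with edgeR 4.0.16 in R 4.3.3 (TMM, filterByExpr defaults, quasi-likelihood F test, adjusted p under 0.05), as the study's methods name edgeR, after the 3 pairs were summed. The standard error is the log2 fold change divided by the square root of F. TMM factors were 0.970 to 1.05 in the controls and 0.948 to 1.05 after 4-NP. CPM printed in the text were not TMM-scaled. DESeq2 1.42.0, limma 3.58.1 on log2(CPM + 1) and other alternatives are in the closing section. The procedures were also run on simulated counts with equal spread for every miRNA and no reads divided between names. That run does not measure their error in these data. Tables were handled in Python 3.11.15 with pandas 2.3.3 and plotted with matplotlib 3.10.9.

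The members, marker lists and tests were chosen with earlier results of these data known. The miRNAs described with their value in every sample were the called ones, the 10 with the largest mean CPM, the 3 pairs, both arms of genes whose ratio changed or of the 5 genes with most reads, and the one closest to a log2 fold change of 0 among those with a mean of at least 100 reads. Other miRNAs named with values were chosen after these were seen.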

Additional observations from a re-analysis of the deposited data

How the results depend on the processing

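The number of cluster miRNAs that were lower after 4-NP was 12 and ranged from 8 to 13 over the alternatives, 13 with DESeq2, 9 with the classic exact test and 8 without 4-NP replicate 2. The calls of miR-154-3p, miR-495, miR-376b-3p, miR-369-3p and miR-329-5p held in all 16 alternatives. miR-543-3p is left out of this count, since 10 reads in every sample as a minimum removes it. The number that were higher, 0, was 1 with DESeq2 (miR-412-5p) and 0 to 1 when each replicate was left out. The miRNA called higher was miR-412-5p without control replicate 3. Without 4-NP replicate 2 it was miR-541-3p (log2 fold change 0.83, SE 0.21, adjusted p = 0.0468 in edgeR's test). The median log2 fold change of all tested miRNAs moved by less than 0.1 under every scaling. Replicate numbers are shared between the groups. Correlations of -0.225, -0.170 and -0.004 between same-numbered samples showed no shared replicate effect, but they cannot tell whether the cultures were paired. With the replicate block 10 cluster miRNAs were lower and 1 arm ratio, that of miR-154, changed in place of 5. The number of changed arm ratios was 3 for arms with at least 100 reads and 1 to 4 when each replicate was left out, with 1 without control replicate 3. The summed level of the cluster kept its ratio within its spread under all alternatives run.

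Some values close to 0 changed sign, and none of them was called. Over the fits that left out 1 replicate, the log2 fold change of miR-369-5p ranged from -0.19 to 0.023 (0.25 with all samples and pairs not summed), that of miR-496-3p from -0.030 to 0.098, that of miR-539-5p from -0.14 to 0.27, that of miR-487b-3p from -0.11 to 0.047, that of miR-376b-5p from -0.13 to 0.11, that of miR-380-5p from -0.032 to 0.22 and that of the arm ratio of miR-376a from -0.080 to 0.50. Apart from the unsummed pairs, the cause was not tested. Depth limits the 8 miRNAs removed by the filter.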

Other observations

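The table also held other RNAs of the domain, which were in no comparison. Reads on the mir-134 precursor family numbered 124, 121 and 112 in control samples 1, 2 and 3 and 74, 75 and 62 in 4-NP samples 1, 2 and 3. The mir-154, mir-412 and mir-668 precursor families had at most 4 reads in any sample. The SNORD113/SNORD114 family, small nucleolar RNAs of the same imprinted domain, numbered 5233, 8956 and 14540 in control samples and 31637, 3587 and 15848 in 4-NP samples. Its lowest and highest values were both in the 4-NP group.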
